A study of Mus musculus with 6 samples.

Results

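The genes described here encode the proteins that splice and package messenger RNA precursors: the heterogeneous nuclear ribonucleoproteins (Hnrnp), the serine and arginine rich splicing factors (Srsf), the Sf3a and Sf3b subunits of the U2 particle, the U2 auxiliary factors (U2af), the small nuclear ribonucleoprotein polypeptides (Snrp), the precursor RNA processing factors (Prpf) and the Sm-like proteins (Lsm). Members were all genes whose current mouse symbol starts with one of these 8 prefixes followed by a digit or letter, whatever their measured values. The set of prefixes was itself chosen with earlier results of these data known. The rule found 73 genes with 162 clones, out of 11837 named genes and 35899 clones on the array. Lsmem2 meets the rule by its symbol alone and encodes no Sm-like protein.

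Adrenal gland RNA of PACAP -/- mice was compared with that of PACAP +/+ mice, both of the mixed 129XC57BL6 F2 background. PACAP, the neuropeptide encoded by Adcyap1, is released by the splanchnic nerve onto chromaffin cells, the cells of the adrenal medulla that secrete catecholamines, and the series asked which adrenal genes depend on it. Each of 6 spotted cDNA arrays held 1 PACAP -/- RNA labelled with Cy3 and 1 PACAP +/+ RNA labelled with Cy5. The dyes were never exchanged, so a genotype effect and a dye effect of a clone cannot be told apart. The labels do not say whether the arrays held separate animals, so p-values reflect only how much these 6 arrays vary, and that variation may be technical.

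In the spliceosome, U1 and U2 particles mark the ends of an intron, the U4/U6.U5 tri-snRNP joins them, and rearrangement of these particles forms the catalytic centre. SR proteins bind exonic RNA and recruit U1 and U2AF, and many hnRNPs bind the precursor and repress or redirect splice site choice. The 2 classes also act in RNA export, stability and translation. In rat chromaffin cells, stress hormones are known to shift alternative splicing of a potassium channel transcript.

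All values below are log2 ratios of PACAP -/- over PACAP +/+, so a positive value is higher in PACAP -/-. Each clone, a cDNA fragment spotted in 1 of 48 print blocks, is named by its gene and print block. Ratios were normalized in 2 ways, by 1 loess curve per array (global loess) and by a separate curve for each print block (print-tip loess). The second is given throughout, since print block alone made up 46.7% of the variance of the clones' mean ratios under global loess, with block means between -0.57 and 0.55. A clone passed when its Benjamini-Hochberg adjusted p from limma, over all 28616 clones tested, was under 0.05. A result leads here where the clone passed in the same direction with both normalizations.

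The adrenal cortex and medulla were both present in the RNA: 6 of 7 cortex marker genes and 6 of 6 medulla marker genes on the array lay above background in both channels on every array. Their clones had positive medians, with a print-tip ratio of 0.62 over 11 tested cortex clones (4 passed higher, and 7 did not pass) and of 0.65 over 9 tested medulla clones (5 passed higher and Slc18a1 passed lower, at -0.46). Clones of adipocyte, macrophage, lymphocyte, erythroid and endothelial markers had print-tip ratios between -0.19 and 0.25. With global loess macrophage Cd68 passed higher (0.63, adjusted p = 0.0292) and lymphocyte Ptprc passed lower (-0.47, adjusted p = 0.0474). In bulk RNA, fewer or more cells of a type and less or more RNA per cell cannot be told apart, and the part of the marker shift in the results below was not tested. Adcyap1 itself could not be used to check the genotypes. Its only clone was measured on 2 arrays, and without the quality filter its ratio was -0.18 ± 0.24 (SE, n = 6, adjusted p = 0.606), with the PACAP +/+ channel below background on 4 arrays.

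Of the 162 member clones, 149 from 71 genes were measured on at least 4 arrays and were tested. Lsm1 and Lsm4 had no tested clone. Members were more often higher than lower in PACAP -/- adrenal glands, and the counts depended strongly on the normalization. With global loess 36 member clones of 25 genes were higher and 10 clones of 10 genes were lower, where 16.2% of all clones tested were higher and 14.2% lower (30.4% in either direction). With print-tip loess 18 clones of 16 genes were higher and 2 clones of 2 genes were lower, against 6.63% and 4.53% of all clones (11.2% in either direction). With both normalizations 10 clones of 8 genes were higher and 1 was lower, against 4.72% and 2.2% of all clones. As shares of the tested member clones, higher and lower calls made up 24.2% and 6.71% with global loess, 12.1% and 1.34% with print-tip loess, and 6.71% and 0.671% with both. The last higher share is near its background and is not read as a result about the members. Clones with a named gene differ from unnamed ones: of all clones with 1 named gene, 7.36% were higher and 2.92% lower with print-tip loess. The median member ratio was 0.15 with global loess and 0.12 with print-tip loess, against 0.02 and -0.0015 over all clones tested and 0.05 and 0.03 over clones with 1 named gene. On each of the 6 arrays the member median lay above the median of all clones with either normalization. With global loess and no quality filter the member median was 0.16, against -0.0002 over all clones. The authors' value table has background subtracted and was used here without loess and without the quality filter. In that table the order was turned round, for reasons not tested: the member median was 1.42 against 1.59 over all clones, and 0.26 against 0.43 after centring. There 22.2% of the member clones were higher, against 29.0% of all clones, and 15.4% against 20.5% after centring.

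**Figure D1:**
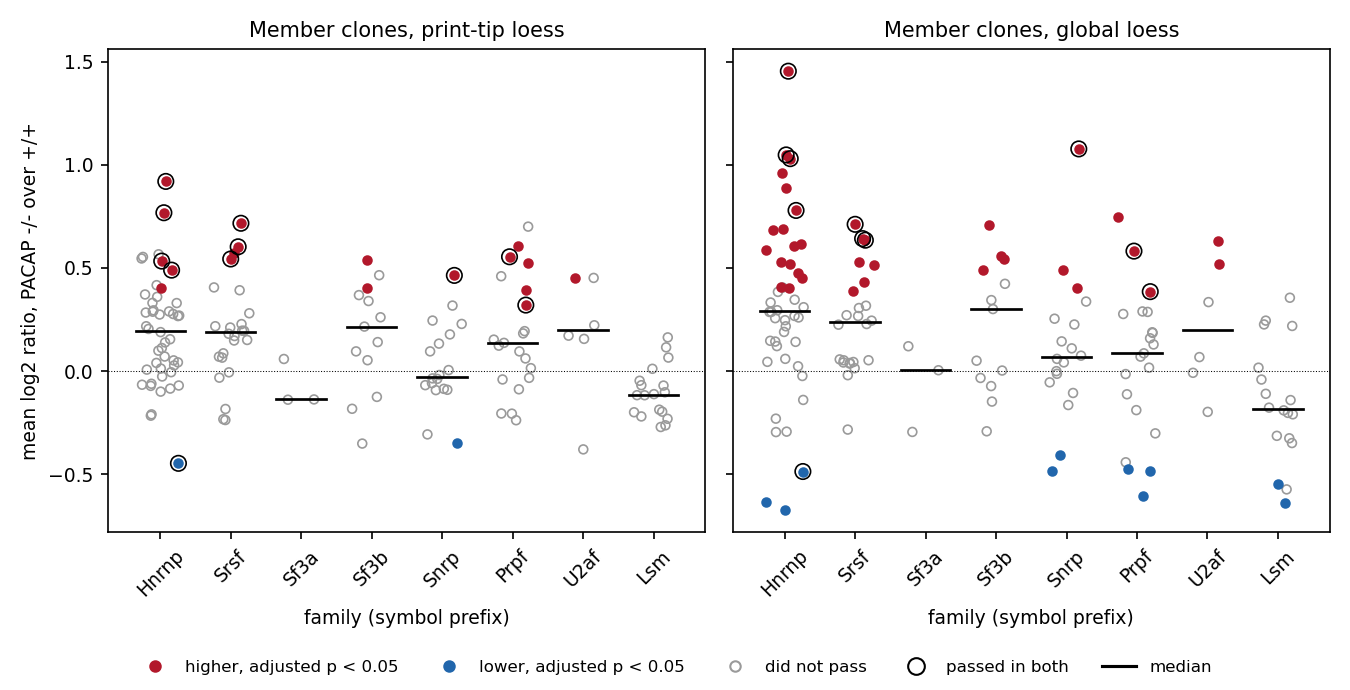
Mean log2 ratio, PACAP -/- over PACAP +/+, of each tested member clone (points, with random sideways spread) by family, with print-tip loess on the left and global loess on the right. Red points passed higher and blue points lower at an adjusted p under 0.05, ringed points passed with both, and bars mark family medians: the Hnrnp, Srsf, Sf3b, Prpf and U2af medians lie above 0 and the Lsm median below 0 in both panels.

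Of 24 tested clones of 10 Srsf genes, 7 passed higher with global loess and 4 with print-tip loess, and 3 did so with both. These are 29.2%, 16.7% and 12.5%, against 16.2%, 6.63% and 4.72% of all clones. No Srsf clone passed lower, where 14.2% of all clones did so with global loess. At an unadjusted p under 0.05 in limma, 0 were lower with global and 1 with print-tip loess. Srsf5 (SRp40), an SR protein first described as an immediate early gene of regenerating rat liver, was the only one of the 42 genes with at least 2 tested clones in which every tested clone passed with both normalizations. Its clone in print block 37 ranged over the 6 arrays from 0.20 to 1.09 with a median of 0.47 under print-tip loess, and from 0.27 to 1.42 with a median of 0.69 under global loess. The means were 0.54 ± 0.12 (SE, n = 6, adjusted p = 0.0298) and 0.71 ± 0.16 (adjusted p = 0.00561), the second a 1.64-fold difference. Its clone in print block 23 ranged from 0.20 to 1.18 with a median of 0.46 under print-tip loess and averaged 0.60 ± 0.13 (adjusted p = 0.0309), against 0.64 ± 0.15 under global loess (adjusted p = 0.00682). Both clones were above 0 on all 6 arrays, and both had their highest print-tip value on array 2 and their lowest on array 5.

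Srsf4 (SRp75), the longest classical SR protein, passed in 1 of its 3 tested clones. That clone, in print block 22, ranged from -0.03 to 1.24 with a median of 0.82 under print-tip loess and was above 0 on 5 of 6 arrays. Its mean was 0.72 ± 0.15 (SE, n = 6, adjusted p = 0.0294) under print-tip loess and 0.63 ± 0.19 (adjusted p = 0.0214) under global loess. Array 1 was the array below 0 with either normalization. Its other clones had print-tip ratios of 0.17 and 0.15 and did not pass. Srsf2 (SC35), a classical exonic enhancer binding protein, passed higher in a different clone with each normalization: 0.57 in print block 14 with print-tip loess and 0.52 in print block 16 with global loess. Its clone in print block 6 is titled in the scanner files as another SR factor. Srsf1, the founding SR protein, had 1 clone higher with global loess only (0.53 in print block 36, against 0.15 with print-tip loess). Srsf10 (SRp38) had 2 of 5 clones higher with global loess only (0.43 and 0.39). The tested clones of Srsf3, Srsf6, Srsf9, Srsf11 and Srsf12 did not pass with either.

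Srsf5 and Prpf38b share a further feature of their promoters, which is shown because PACAP receptors are known to raise cyclic AMP and CREB binds the cyclic AMP response element. Promoters of RefSeq (build GRCm38.p6) matched 62 of the 73 genes by symbol, and the 250 bases before each start were searched on both strands. Capitals mark the CRE half-site TGACG and the ETS motif CGGAAG in either orientation. The Srsf5 promoter lies at chr12:80945249-80945498 on the plus strand, that of Prpf38b at chr3:108911730-108911979 on the minus strand and that of Hnrnpu, the gene with the largest ratios, at chr1:178337816-178338065 on the minus strand.
Srsf5: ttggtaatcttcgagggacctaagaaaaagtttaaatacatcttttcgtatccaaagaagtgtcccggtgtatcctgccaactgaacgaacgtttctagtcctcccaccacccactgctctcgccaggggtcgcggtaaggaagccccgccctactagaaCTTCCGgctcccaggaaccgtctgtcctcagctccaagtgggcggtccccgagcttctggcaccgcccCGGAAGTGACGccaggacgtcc
Prpf38b: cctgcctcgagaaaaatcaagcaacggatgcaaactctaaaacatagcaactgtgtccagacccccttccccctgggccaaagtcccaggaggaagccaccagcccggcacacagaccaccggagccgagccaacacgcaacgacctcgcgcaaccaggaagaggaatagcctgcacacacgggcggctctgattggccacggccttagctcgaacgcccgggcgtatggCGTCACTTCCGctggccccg
Hnrnpu: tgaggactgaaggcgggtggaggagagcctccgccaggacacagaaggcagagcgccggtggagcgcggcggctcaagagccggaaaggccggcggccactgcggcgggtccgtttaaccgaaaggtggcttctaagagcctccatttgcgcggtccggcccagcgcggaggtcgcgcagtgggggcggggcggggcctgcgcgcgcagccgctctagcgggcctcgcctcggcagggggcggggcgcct
Both motifs stand directly joined, the ETS motif followed by the half-site, in Srsf5, starting 22 bases before the start of transcription, and on the opposite strand in Prpf38b, starting 20 bases before it. The joined form, searched on both strands after these promoters had been read, was held by 3 of the 62 member genes (the third was U2af1l4) and by 0.385% of 27025 genes with a promoter. As this form was taken from Srsf5 and Prpf38b themselves, its share among members is not read as a result about them. The full CRE TGACGTCA was held by 3 of the 62 (Lsm2, Snrpa and Snrpg, none of which had a clone that passed), or 4.84%, against 1.77% of all genes. The half-site, which is part of both longer motifs, was held by 38.7% of the member genes and 19.8% of all genes, and CGGAAG by 50.0% and 15.3%. The GC box GGGCGG was also commoner in member promoters, at 64.5% against 35.4%. The Hnrnpu window holds neither the half-site nor CGGAAG, and 3 GC boxes.

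Among the hnRNPs, the nuclear proteins that coat nascent transcripts, 17 of 46 tested clones were higher and 3 lower with global loess, 5 and 1 with print-tip loess, and 4 and 1 with both. The higher shares were 37.0%, 10.9% and 8.7%, against 16.2%, 6.63% and 4.72% of all clones. Hnrnpu (SAF-A), which binds nascent RNA and scaffold attachment DNA, had the largest ratio of any member with either normalization. Its clone in print block 48 ranged over the arrays from 0.55 to 1.87 with a median of 1.66 under global loess, and from 0.24 to 1.12 with a median of 0.88 under print-tip loess. The means were 1.45 ± 0.16 (SE, n = 6, adjusted p = 0.00029, 2.74-fold) and 0.77 ± 0.12 (adjusted p = 0.0241), a drop that follows the block: print block 48 had the highest mean of all blocks, 0.55. Its clone in print block 29, where the block mean was 0.08, ranged from 0.36 to 1.90 with a median of 0.70 under print-tip loess. Its means were closer together, 0.92 ± 0.20 under print-tip loess (adjusted p = 0.0308) and 1.03 ± 0.21 under global loess (adjusted p = 0.00389). Arrays 2 and 4 were the highest for this clone with either normalization. The remaining Hnrnpu clones had print-tip ratios of 0.55 in print block 5 (adjusted p = 0.058) and 0.03 in print block 35, so that the clones of this gene spanned 0.89.

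Hnrnpa3 and Hnrnpab, both of the A/B type with paired RNA recognition motifs, were the other hnRNPs that passed higher with both. The Hnrnpa3 clone in print block 44 ranged from 0.13 to 1.19 with a median of 0.49 under print-tip loess and was above 0 on all 6 arrays. Its mean was 0.53 ± 0.12 (SE, n = 6, adjusted p = 0.0325) under print-tip loess, against 1.05 ± 0.15 under global loess (adjusted p = 0.00088), in a block whose mean was 0.52. It was 1 of 6 tested Hnrnpa3 clones; the others lay between -0.08 and 0.55 under print-tip loess. The Hnrnpab clone in print block 20, the only one of its gene, ranged from -0.15 to 0.90 with a median of 0.51 under print-tip loess. It averaged 0.49 ± 0.13 (adjusted p = 0.0412) under print-tip and 0.78 ± 0.18 (adjusted p = 0.0077) under global loess, and array 1 was its only array below 0.

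Hnrnpd (AUF1), which binds AU-rich elements and directs messenger RNA decay, held the only clone that passed lower with both. In print block 31 it ranged from -0.90 to -0.02 with a median of -0.39 under print-tip loess, below 0 on all 6 arrays, and from -0.93 to 0.03 under global loess. The means were -0.45 ± 0.12 (SE, n = 6, adjusted p = 0.0433) and -0.49 ± 0.15 (adjusted p = 0.023), although the mean of its block was 0.18. The other 4 Hnrnpd clones did not pass with either normalization, and 3 of them had positive ratios, so the clones of Hnrnpd do not share a direction. Hnrnpm, an hnRNP of the M type, was higher in print block 21 with print-tip loess (0.41 ± 0.11, adjusted p = 0.0479) and lower in print block 2 with global loess (-0.63, adjusted p = 0.00602), where print-tip loess gave -0.07.

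The other hnRNPs passed with global loess at most. Hnrnpa2b1, a nuclear and dendritic RNA carrier, had 3 clones at 0.28, 0.29 and 0.36 under print-tip loess, none of which passed (lowest adjusted p = 0.0573), and 2 of them passed with global loess (0.47 and 0.96). All 6 clones of Hnrnpc, a binder of uridine tracts, were positive under global loess and 2 passed, while under print-tip loess they ran from -0.22 to 0.33 and none passed. Hnrnpdl, Hnrnpk, Hnrnpl, Hnrnpll, Hnrnpr and Hnrnpa1 likewise each had at least 1 clone higher with global loess only. Hnrnpa0 was lower with global loess only: its clone in print block 5 ranged from -1.03 to -0.20 with a median of -0.76 and averaged -0.67 ± 0.14 (SE, n = 6, adjusted p = 0.00368), against -0.10 ± 0.12 (adjusted p = 0.576) with print-tip loess, in a block whose mean was -0.51. Hnrnpf, Hnrnph2, Hnrnpul1 and Hnrnpul2 did not pass. The clones assigned to Hnrnpf in print block 20 and to Hnrnpul1 carry scanner titles of other transcripts. Hybridisation between close hnRNP relatives and their processed copies was not tested.

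**Figure D2:**
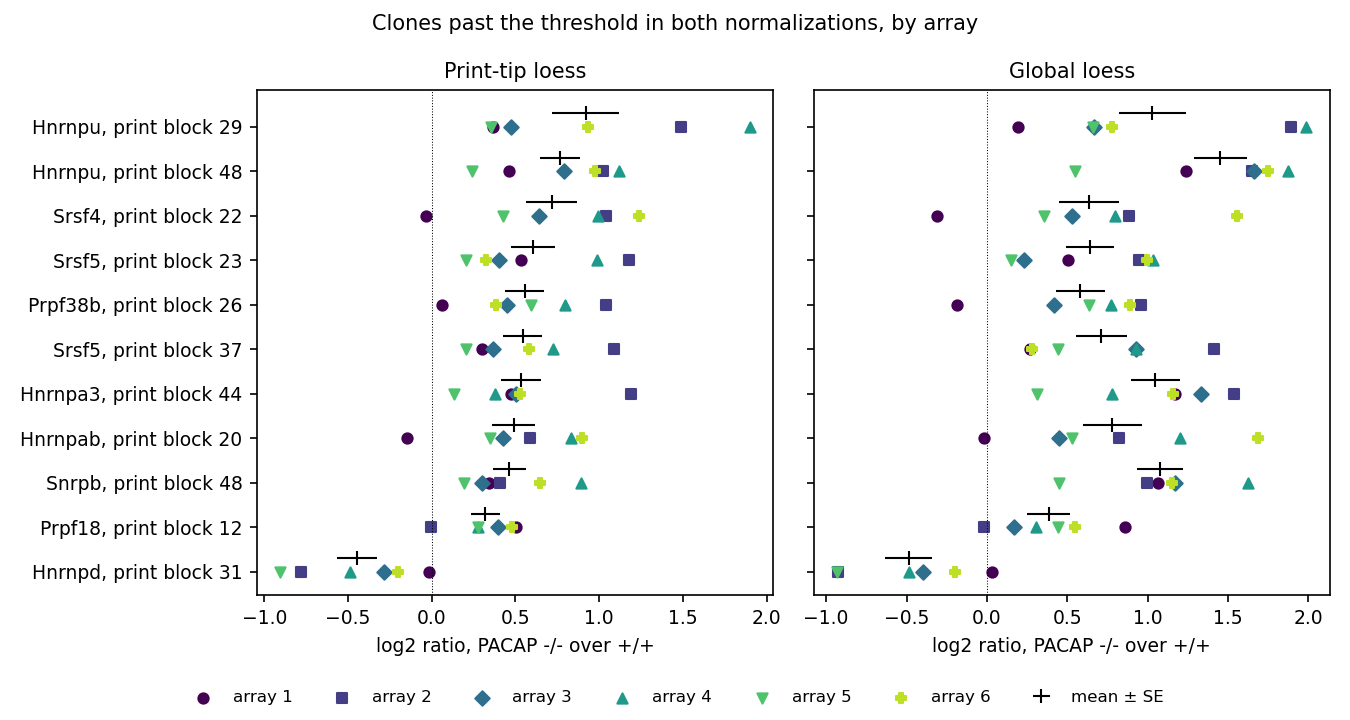
Log2 ratio, PACAP -/- over PACAP +/+, of the 11 clones past the threshold with both normalizations on each of the 6 arrays (symbols), with the mean and SE drawn above each row. In the print-tip panel 7 of the 10 higher clones lie above 0 on every array and Hnrnpd lies below 0 on every array, and array 1 or 5 is the lowest for 9 of the 10 higher clones.

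Recognition of the branch point and the 3' splice site involves U2AF, which binds the polypyrimidine tract, and the Sf3b complex of U2. Sf3b1, the Sf3b subunit that clamps the branch helix, had 3 of 4 clones higher with global loess, at 0.49, 0.54 and 0.71, and its clone in print block 1 was higher with print-tip loess only. That clone had a mean of 0.54 ± 0.15 with print-tip loess (adjusted p = 0.0457) against -0.07 with global loess, in the block with the lowest mean (-0.57). The clone in print block 36 ranged from 0.16 to 1.32 with a median of 0.61 under global loess and averaged 0.71 ± 0.15 (SE, n = 6, adjusted p = 0.00482), against 0.22 ± 0.12 (adjusted p = 0.223) with print-tip loess. Under print-tip loess all 4 Sf3b1 clones were positive, from 0.22 to 0.54.

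Sf3b5, a small Sf3b subunit, passed with print-tip loess in 1 of 2 clones (0.40 in print block 19, adjusted p = 0.0449). Sf3b2, Sf3b3, Sf3b4 and Sf3b6 did not pass, apart from an Sf3b4 clone in print block 48 that was higher with global loess only (0.56). Both Sf3b4 clones carry the scanner title of a heat shock protein, and 1 of the Sf3b2 clones that of a flavin monooxygenase. Sf3a1 and Sf3a3, subunits that join Sf3b to the U2 core, gave 3 tested clones. Of these 0 passed in limma with either normalization, also at an unadjusted p under 0.05. The lowest p under global loess was that of Sf3a3 in print block 4, which ranged over 5 arrays from -1.18 to 0.25 with a median of -0.20 (mean -0.29 ± 0.19, adjusted p = 0.257).

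U2af2, the large U2AF subunit, had 3 positive clones. The one in print block 12 ranged from 0.10 to 1.58 with a median of 0.56 under global loess, above 0 on all 6 arrays. It averaged 0.63 ± 0.17 with global loess (SE, n = 6, adjusted p = 0.0131), and 0.45 ± 0.14 with print-tip loess just missed the threshold (adjusted p = 0.0597). The clone in print block 6 passed with print-tip loess (0.45 ± 0.12, adjusted p = 0.0411) and had a global ratio of 0.07, in a block whose mean was -0.36. U2af1l4, related to the small subunit, passed in 1 of 3 clones with global loess only.

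The Sm proteins form the ring around the U1, U2, U4 and U5 RNAs. Snrpb, the Sm B protein, was the member of the ring that passed with both. Its clone in print block 48 ranged from 0.19 to 0.89 with a median of 0.37 under print-tip loess and from 0.45 to 1.62 with a median of 1.11 under global loess, above 0 on all 6 arrays. The means were 0.46 ± 0.10 (SE, n = 6, adjusted p = 0.0309) and 1.08 ± 0.14 (adjusted p = 0.00062), in the same high block as the Hnrnpu clone above. Its other tested clone, in print block 20, had ratios of -0.09 and 0.11 and did not pass. Snrpd3, another ring member, was lower with global loess, where its clone in print block 11 ranged from -1.03 to 0.03 with a median of -0.43 and averaged -0.48 ± 0.14 (adjusted p = 0.0196). Its print-tip mean of -0.31 ± 0.09 did not pass (adjusted p = 0.0544). Over the 7 Sm ring genes, 3 of 9 tested clones were higher (Snrpb, Snrpd1 and Snrpf) and 1 lower with global loess, and the Snrpb clone was the only one that passed with print-tip loess. The global shares are 33.3% and 11.1%, against 16.2% and 14.2% of all clones. Over all 18 tested Snrp clones they were 16.7% and 11.1%, and 5.56% were higher with print-tip loess, against 6.63%. The higher Snrp shares are near those of all clones and are not read as a result about the family. Snrpd2, Snrpe and Snrpg did not pass.

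Of the particle-specific proteins, Snrpa1, the U2 A′ protein, was lower with print-tip loess only (-0.35, adjusted p = 0.0387, below 0 on all 6 arrays), against 0.08 with global loess in a block whose mean was 0.48. Snrpb2, the U2 B″ protein, was lower with global loess in 1 of 3 clones (-0.40 in print block 10) and did not pass with print-tip loess (-0.09). Snrpa and Snrpc, proteins of U1, had 5 clones between -0.07 and 0.23 under print-tip loess, none of which passed with either.

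The Prpf proteins act from tri-snRNP assembly to the second catalytic step. Of 21 tested clones of 11 genes, 3 were higher and 3 lower with global loess, and 5 were higher and 0 lower with print-tip loess (0 lower at an unadjusted p under 0.05 in limma). The global loess shares of 14.3% higher and 14.3% lower are about those of all clones (16.2% and 14.2%), and the print-tip share was 23.8% higher, against 6.63%. Prpf38b, related to the yeast tri-snRNP factor Prp38, passed with both in print block 26, where its clone ranged from 0.06 to 1.04 with a median of 0.52 under print-tip loess and was above 0 on all 6 arrays. The means were 0.55 ± 0.12 (SE, n = 6, adjusted p = 0.0304) under print-tip and 0.58 ± 0.15 (adjusted p = 0.0121) with global loess, in a block whose mean was 0.0031. It has 5 tested clones, which spanned 0.94 under print-tip loess, the widest range of any member gene: 0.70 in print block 5 (adjusted p = 0.0504), 0.10 in print block 38, and 0.15 and -0.24 for a pair in print block 32. The first of that pair ranged from 0.36 to 1.78 with a median of 0.55 under global loess and passed there (0.75 ± 0.17, adjusted p = 0.00686), in a block whose mean was 0.49.

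Prpf18, a factor of the second catalytic step, passed with both in its only clone, in print block 12. It ranged from -0.01 to 0.50 with a median of 0.34 under print-tip loess, and its means of 0.32 ± 0.09 (SE, n = 6, adjusted p = 0.0437) and 0.39 ± 0.13 with global loess (adjusted p = 0.0423) were the smallest among the clones that passed with both. Array 2, high in most other clones, was its lowest. With print-tip loess alone Prpf31, which bridges U4/U6 and U5, was higher in 1 of 4 clones (0.61 in print block 3), Prpf8, the scaffold of the catalytic centre, in 1 of 2 (0.40 in print block 13), and Prpf40b, related to a yeast U1 protein, in 1 of 2 (0.52 in print block 6). The lower Prpf calls with global loess were Prpf4b, a splicing kinase, Prpf19, a ubiquitin ligase of the spliceosome, and the other Prpf40b clone. Of these Prpf4b was the lowest, in print block 2, ranging over 5 arrays from -0.98 to -0.16 with a median of -0.72 and averaging -0.61 ± 0.15 (adjusted p = 0.00966), against -0.09 ± 0.08 (adjusted p = 0.48) with print-tip loess. The clones of Prpf3, Prpf4, Prpf6 and Prpf38a did not pass.

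The Lsm family had medians below 0 with both normalizations. Its 18 tested clones had a median ratio of -0.18 with global loess and -0.11 with print-tip loess. They include 1 clone of Lsmem2, which encodes no Sm-like protein, at -0.57 with global and -0.20 with print-tip loess. With either normalization 0 passed higher, where 16.2% of all clones did so with global loess and 6.63% with print-tip loess. With global loess 2 passed lower, or 11.1%, against 14.2% of all clones. With print-tip loess 0 passed lower, against 4.53%. Lower calls were thus no commoner than over all clones. At an unadjusted p under 0.05 in limma, 1 was higher and 5 lower with global loess, and 0 were higher and 3 lower with print-tip loess. The share of all clones at that p was not computed. The clones that passed were those of Lsm14a, a protein of cytoplasmic processing bodies, and Lsm10, of the U7 particle that processes histone messenger RNA, both lower with global loess only. Lsm14a in print block 3 ranged over 5 arrays from -0.81 to -0.49 with a median of -0.56 and averaged -0.64 ± 0.13 (SE, n = 5, adjusted p = 0.00455), against -0.27 ± 0.10 (adjusted p = 0.0975) with print-tip loess. Its 4 tested clones were all negative under print-tip loess, from -0.27 to -0.10, while 1 of them, in print block 48, was positive under global loess (0.36). The 8 tested clones of Lsm2, Lsm3, Lsm6, Lsm7 and Lsm8, subunits of the ring on the U6 RNA, lay between -0.23 and 0.16 under print-tip loess, and none of them passed. Lsm11, Lsm12, Lsm14b and Lsmem2 did not pass. Whether the Lsm ratios differ from those of the other families was not tested.

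Clones of the same gene gave different ratios, and no member gene had clones that passed in opposite directions within a normalization. The 42 member genes with at least 2 tested clones had a median range between clones of 0.48 with global loess and 0.22 with print-tip loess, against 0.45 and 0.25 over all 4875 such named genes. All clones of a gene had the same sign in 23 and 24 of the 42 genes, where the shares over all named genes were 43.1% and 47.5%. At least 2 clones passed the same way in 9 of the 42 genes with global loess, and in Hnrnpu and Srsf5 alone with print-tip loess.

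**Figure D3:**
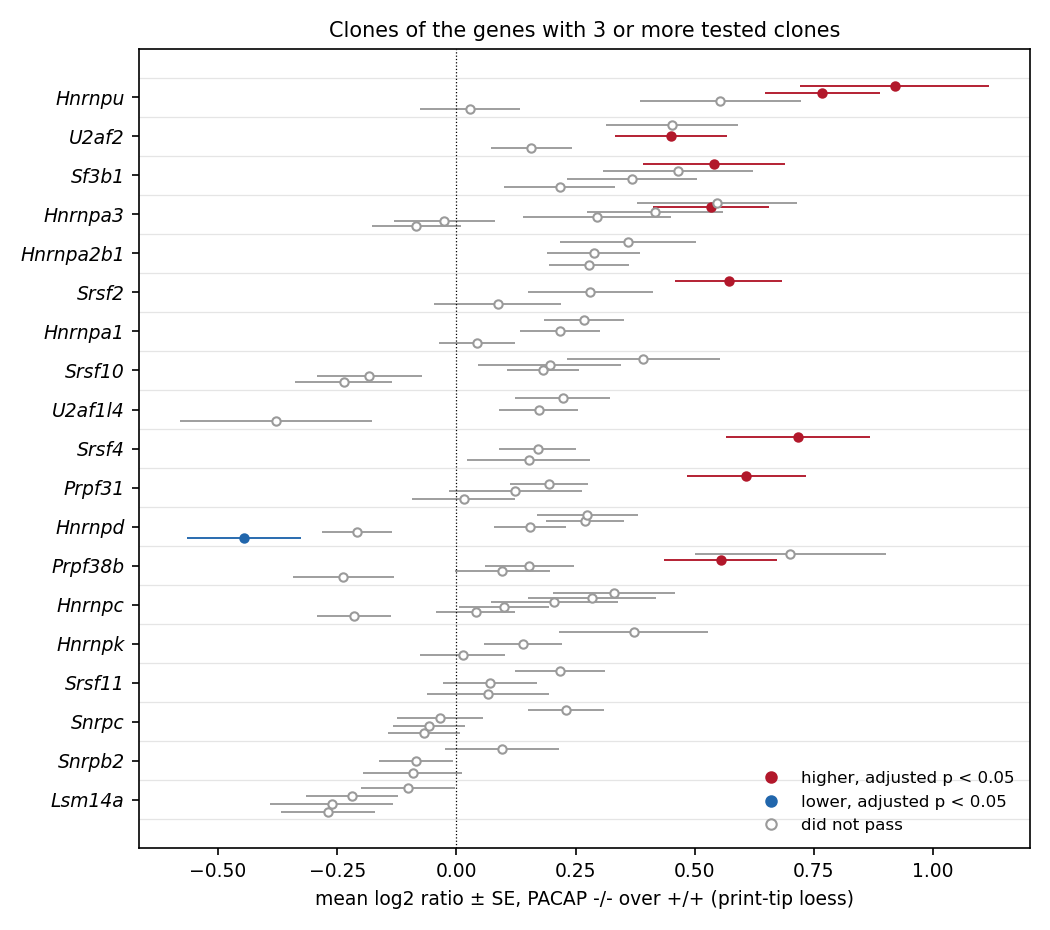
Mean log2 ratio with its SE, PACAP -/- over PACAP +/+ under print-tip loess, for the 74 clones of the 19 member genes with 3 or more tested clones, ordered by gene median. Red clones passed higher, blue lower and open clones did not pass: most genes with a red clone also have clones near 0, and the 4 Lsm14a clones all lie below 0.

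The print block of a clone moved with its global loess result. Of the 36 higher member clones, 33 lay in blocks with a mean above 0, and of the 10 lower clones 9 lay in blocks with a mean below 0, although members were spread over the blocks like other clones (62.4% of member clones and 60.5% of all clones lay in blocks with a mean above 0). With print-tip loess, 10 of the 18 higher clones lay in such blocks. Of the 10 clones higher with both, 9 did.

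**Figure D4:**
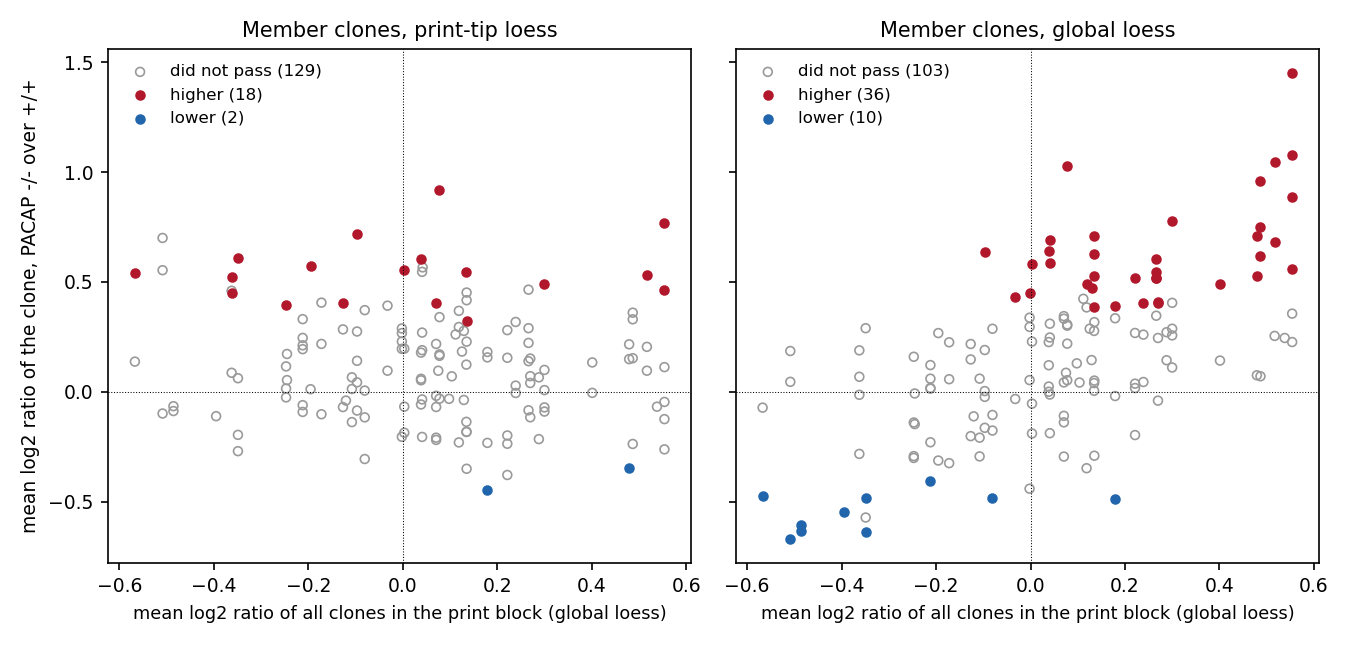
Mean log2 ratio of each tested member clone, PACAP -/- over PACAP +/+, against the mean log2 ratio of all clones in its print block under global loess, with the clone's ratio from print-tip loess on the left and from global loess on the right. Under global loess the 36 higher clones (red) sit mostly at the right and the 10 lower clones (blue) mostly at the left, and under print-tip loess the 18 higher clones spread over the whole axis.

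The arrays did not carry the member shift equally. The member median under print-tip loess was 0.04, 0.23, 0.08, 0.20, 0.04 and 0.10 on arrays 1 to 6, and 0.06, 0.23, 0.09, 0.20, 0.05 and 0.17 under global loess. It was largest on arrays 2 and 4, where the PACAP +/+ channel was dimmest: its median signal was 1.37 and 1.15 times its background there, against 1.65 to 4.79 times on the other arrays, while the PACAP -/- channel had 5.39 to 7.07 times on all 6. Without arrays 2 and 4, 7 of 133 tested member clones passed higher and 0 lower with global loess, and 0 passed with print-tip loess. Of all 25848 clones tested there, 1601 were higher and 615 lower with global loess, and 83 and 5 with print-tip loess. The 7 higher clones are near the share of all clones and are not read as a result about the members. At an unadjusted p under 0.05 in limma, 29 member clones were higher and 7 lower with global loess, and 23 and 6 with print-tip loess. The share of all clones at that p was not computed, so these counts are not read as a result about the members. Without arrays 2 and 4 the member median was 0.13 with global loess and 0.08 with print-tip loess. Of the 11 clones that passed with both, 8 had the PACAP +/+ channel below its background on at least 1 array. The part of the dim channel in these results was not tested.

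The number of print-tip calls depended on which array was left out. Without array 2, 3, 4 or 6, 0 member clones passed with print-tip loess, as against 20 higher and 2 lower without array 1 and 16 higher and 1 lower without array 5. At an unadjusted p under 0.05 in limma, 33 to 45 member clones were higher and 4 to 9 lower without array 2, 3, 4 or 6, with no share of all clones computed. These fits lost calls over the whole array: 1, 1, 19 and 1 of the 27334 to 28215 clones tested passed higher. The member median in them was 0.12 to 0.14, against 0.12 with all 6 arrays. With global loess, 8 to 10 of the 11 clones kept their call when any array was left out. The clones of Hnrnpa3, Hnrnpab, Hnrnpu, Prpf38b, Snrpb and Srsf5 kept it in all 6 such fits, Srsf4 lost it without array 2, 4 or 6, Hnrnpd without array 2, 4 or 5, and Prpf18 without any of arrays 1, 3, 4, 5 and 6.

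Other genes of splicing, outside the named families, were counted from 5 lists of 194 genes, of which 156 had 341 tested clones. Of these, 69 clones were higher and 36 lower with global loess, 28 and 6 with print-tip loess, and 21 and 3 with both, with medians of 0.10 and 0.07. The higher shares of 20.2%, 8.21% and 6.16% are near those of all clones (16.2%, 6.63% and 4.72%). Of the SR protein kinases, which phosphorylate SR proteins, 2 of 21 clones passed higher with both, or 9.52%, against 4.72% of all clones. The 2 clones were of Clk3: 1.10 ± 0.23 (print-tip loess, adjusted p = 0.0293) in print block 27 and 0.49 ± 0.14 (adjusted p = 0.0465) in print block 33. As both are of 1 gene, the share is not read as a result about the list. Srpk2 in print block 20 passed lower with print-tip loess only (-0.41, adjusted p = 0.0327). Clones of Clk2 passed in opposite directions with global loess (0.77, 0.54 and -0.51). The list of other splicing regulators had 12 higher and 2 lower of 146 with both, or 8.22% and 1.37%, against 4.72% and 2.2% of all clones. The largest in it by global loess were Rbm5, a regulator of apoptosis-related exons (1.14 with global and 0.45 with print-tip loess), and the muscleblind protein Mbnl2 (0.92 and 0.67). Mbnl2, Srrm2 and Qk each gave more than 1 of the 12 higher clones. The higher clones of Tra2a in print block 41 and of Qk in print block 39 carry scanner titles of other transcripts.

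Among 113 clones of other spliceosome components 5 were higher with both, or 4.42%, close to the 4.72% of all clones. The largest by global loess were both of Puf60, a U2AF-related factor (0.94 in print block 8 and 0.49 in print block 27 with print-tip loess). Of 32 clones for the exon junction and cap binding complexes, 2 were higher with both, or 6.25%, near the 4.72% of all clones. They were those of Thoc5, of the export complex THO (1.20 with print-tip loess), and Acin1, an exon junction component (1.11). Of 29 clones for snRNP assembly and the SMN complex 1 passed with both, and it was lower, or 3.45%, against 2.2% of all clones. It was that of Gemin2, which binds the Sm ring during assembly (-0.38 with print-tip loess, adjusted p = 0.0343, below 0 on all 5 arrays measured).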

How the data were processed

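Adrenal gland RNA was measured on 6 two-colour spotted cDNA arrays of 35899 mouse clones. Per the series design text, the authors subtracted background, normalized ratios and used ratios with a quality score above 0.3. Intensity and background were deposited in separate columns, and the authors' value table was reproduced by subtracting background from intensity and scaling. The deposited quality score lies between 0 and 1. The authors' deposited value table holds uncentred log2 ratios of red over green, and it was turned to PACAP -/- over PACAP +/+ here. Versions of the image software are not given in the sources used here.

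Log2 ratios of green (PACAP -/-) over red (PACAP +/+) were computed from the deposited intensities of spots with a score above 0.3, with no background subtracted. They were normalized by global loess (span 0.3, 4 iterations) or by print-tip loess, averaged per clone and tested against 0 with limma 3.58.1 (R 4.3.3) where at least 4 arrays had a value. P-values were adjusted over all 28616 clones, with a threshold of 0.05. The test was tried on simulated data with known changes. Control or empty spots, 1217 per array, were left out. Summaries used Python 3.11.15 with pandas 2.3.3. The number of arrays limits the precision, and red signal over background differed between arrays.

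The genes of clones came from the platform annotation of the value table, and a row was assigned to the spot that gave its value on every array (tolerance 0.002), which left 1 spot for 35793 of 35873 rows. Symbols were updated through the RefSeq table of GRCm38.p6. Probes shared with other genes, 14 in all, were not used, which leaves out Hnrnph3, Lsm5 and Snrpn. Titles in the scanner files name another gene for 7 tested member clones.

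The members and lists were chosen with earlier results of these data known. Full values are given for up to 12 member clones with the largest ratios past the threshold with both normalizations, and for the highest and lowest clone per family past it with global loess (or, if none passed, that with the smallest p). They were also planned for a member clone that passed in opposite directions in the 2 normalizations, and for clones of a member gene that did so within a normalization. There were none of either. Different clones of Hnrnpm and of Prpf40b passed higher with print-tip loess and lower with global loess. From each list, the 2 largest clones past the threshold with both are named, or that with the smallest p. Alternatives were median centring, block centring, normexp, other quality filters, both channels above background, values on all arrays, the authors' value table, 1 clone per gene and leaving out arrays.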

Additional observations from a re-analysis of the deposited data

Results flagged for a closer look

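In 20 groups of 5 or 6 arrays (the 19 clones with full values, 3 of them measured on 5 arrays, and the member median), 1 array stood apart from the rest of its group by Dixon's criterion, and chance gives about 1 in 20. It was array 6 of the Prpf38b clone in print block 32 that passed with global loess. Its global loess ratio was 1.78, against 0.88 on the next array and 0.36 on the lowest.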

How the results depend on the processing

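The main counts were 36 member clones higher and 10 lower, 69 and 36 list clones, and a member median of 0.15. Print-tip loess gave 18 and 2 members and 28 and 6 list clones. Centring the print blocks gave 3 lower members and 8 lower list clones, and normexp gave 3 lower members and 45 and 17 list clones. Without the quality filter 5 members were lower. With values on all 6 arrays the member median was 0.23. The authors' value table gave 1 lower member, 1 lower list clone and a median of 1.42, and after centring 4 lower members, 37 and 19 list clones and a median of 0.26. Both medians lay below those of all clones (1.59 and 0.43). Without arrays 2 and 4 there were 7 and 0 members and 17 and 4 list clones with global loess, and 0 and 0 members and 1 and 0 list clones with print-tip loess. Of all clones, 8.57% and 0.34% then passed in either direction. With 1 clone per gene, which tests fewer clones, there were 15 and 5 members and 27 and 20 list clones.

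Leaving out 1 array, higher members ran from 19 to 35 and lower from 5 to 11 with global loess, and from 0 to 20 and 0 to 2 with print-tip loess. Higher list clones ran from 35 to 76 and lower from 17 to 32 with global loess, and from 0 to 48 and 0 to 5 with print-tip loess (without array 5, 16 higher members and 33 higher list clones). Of the 19 clones with full values, 18 had passed with global loess. With print-tip loess 11 of these kept the call and 7 lost it. None reversed under the other scalings of the deposited intensities with all 6 arrays. The authors' values reversed 5: Hnrnpa0 (1.12), Hnrnpd (2.31), Lsm14a (0.56), Sf3a3 (1.08) and Snrpd3 (2.10). After centring it, 7 did: Hnrnpd (1.15), Snrpd3 (0.94), Prpf38b in print blocks 26 (-0.34) and 32 (-0.21), Srsf4 (-0.56), Srsf5 in print block 37 (-0.18) and U2af2 (-0.087). Hnrnpa0 reversed with print-tip loess without array 2 (0.019) and without arrays 2 and 4 (0.0004). The cause was not tested. The value table kept 3 of the 11 calls made with both normalizations, and 2 after centring. The test of ratios within arrays is itself paired, so no replicate block was added. Dim PACAP +/+ signal limits what the ratios of arrays 2 and 4 can show.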
